A study of Mus musculus with 3 samples.

Results

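The ATP-binding cassette (ABC) transporters of mouse were compared between liver and spleen RNA on 3 two-colour oligonucleotide arrays. The members were every probe whose single gene symbol in the platform annotation begins with Abc, a subfamily letter from a to g and a number, which gave 39 probes of 33 genes among the 16281 probes and 10698 named genes of the table. Of these, 37 probes were measured on all 3 arrays and 2 on 2 arrays, and all 33 genes kept at least 1 probe measured on all 3. Another 17 ABC genes of the same naming in the RefSeq gene table were not analysed here.

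ABC proteins share an ATP-binding domain, and most use it to move lipids, bile constituents, drugs, conjugates or peptides across a membrane. In the hepatocyte a set of them sits in the canalicular membrane, which faces the bile, and secretes bile salts, phospholipid, sterols and conjugated bilirubin. Others sit in the blood-facing membrane, in peroxisomes, lysosomes or mitochondria, and subfamilies e and f have no membrane domain and act at the ribosome.

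The liver RNA carried the red dye and the spleen RNA the green dye on every array, so a tissue difference and a dye difference of a probe cannot be told apart. Both RNAs were purchased total RNAs, and cRNA was prepared from each by 1 round of amplification. The labels give no strain, sex, age or number of mice. They name 1 catalogue product per tissue throughout and leave unsaid at which step the repeats part. The SDs and p-values below therefore describe how far repeat arrays differed, possibly for technical reasons, and the number of arrays limits the precision. In RNA of whole tissue, fewer cells of a type and less RNA per cell cannot be told apart.

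Values are log2 ratios read as liver over spleen, positive where the liver signal was higher. The sample titles name spleen first, as Spleen vs Liver, and the labels do not state the direction of the ratio. The reading used is likely from marker genes: over the probes measured on each array, the median of a liver set was 2.65, 3.45 and 2.66 on arrays 1, 2 and 3. That of 6 spleen genes was -1.43, -1.48 and -1.16. The liver set rested on Ahsg and Hpx on arrays 1 and 3, and 1 of the 2 Hpx probes averaged -0.29. In the spleen set 6 of 9 probes passed toward spleen. The other 3, of Cd3e, Coro1a and Ptprc, averaged 0.13, 0.24 and 0.03 and did not pass. An exact 0 in the table was taken as no measurement, because probes of abundant liver transcripts such as Apoa1 and Ttr are listed at 0 on every array. A probe passed the test when limma's adjusted p, over all 14122 probes measured on 3 arrays, was under 0.05. Array 3 had a narrower spread of ratios over all probes, with an SD of 0.896 against 1.00 on array 1 and 1.01 on array 2.

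Promoter letters from RefSeq (build GRCm38.p6) are shown for the sterol exporters Abcg5 and Abcg8, the bile salt exporter Abcb11 and the conjugate exporter Abcc2, which had the 4 highest ratios of the family, and for Abca7, which had the lowest. Abcg5 and Abcg8 are neighbours on chromosome 17 that are read in opposite directions, and the stretch shown is the 109 bases between their start sites, chr17:84683012-84683120, on the strand of Abcg8. RefSeq lists another start site for Abcg8. For the others the 250 bases before the start site are shown on the strand of the gene: chr2:69342617-69342866 (minus strand) for Abcb11, chr19:43782058-43782307 (plus strand) for Abcc2 and chr10:79996244-79996493 (plus strand) for Abca7. Capitals mark matches on either strand to the nuclear receptor core AGGTCA or to AGATAA, as bound by GATA factors such as Gata1. They also mark the core promoter letters TATAAA and the Sp1 letters GGGCGG. The HNF1 core GTTAAT was searched as well.
Abcg5-Abcg8: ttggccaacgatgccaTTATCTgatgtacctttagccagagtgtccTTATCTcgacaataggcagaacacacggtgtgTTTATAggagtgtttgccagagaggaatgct
Abcb11: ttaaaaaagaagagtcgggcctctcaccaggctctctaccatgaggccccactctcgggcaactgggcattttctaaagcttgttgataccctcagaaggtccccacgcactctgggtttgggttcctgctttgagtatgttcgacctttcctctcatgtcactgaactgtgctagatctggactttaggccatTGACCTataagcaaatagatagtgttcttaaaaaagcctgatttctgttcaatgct
Abcc2: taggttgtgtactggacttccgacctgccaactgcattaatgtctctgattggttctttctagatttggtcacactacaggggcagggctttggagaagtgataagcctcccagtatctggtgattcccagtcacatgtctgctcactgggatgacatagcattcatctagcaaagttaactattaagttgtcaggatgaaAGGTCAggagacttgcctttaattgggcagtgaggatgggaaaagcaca
Abca7: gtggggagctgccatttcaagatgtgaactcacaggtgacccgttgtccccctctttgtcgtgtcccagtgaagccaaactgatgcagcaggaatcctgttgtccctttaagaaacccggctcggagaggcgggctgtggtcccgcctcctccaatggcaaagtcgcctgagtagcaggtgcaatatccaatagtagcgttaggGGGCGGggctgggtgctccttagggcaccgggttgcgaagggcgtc

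The stretch shared by Abcg5 and Abcg8 held 2 AGATAA matches and 1 TATAAA match, the Abcb11 and Abcc2 stretches 1 AGGTCA match each, and the Abca7 stretch 1 GGGCGG match. No matches overlapped each other. In the windows of 300 bases around the start sites, 26 of the 33 genes had an entry, with 31 windows among them, since some genes have more than 1 start site. AGGTCA was in 5 of these windows (16.1%), those of Abcb11, Abcb6, Abcc2 and Abcg2, against 16.3% of all 32851 windows. AGATAA was in 4 windows (12.9%), of Abcg5, Abcg8, Abca14 and Abcf2, against 11.2%. TATAAA was in 7 windows (22.6%), of Abcb6, Abcg5, Abcg8, Abca1, Abca4 and Abcg2, against 13.6%. GGGCGG was in 17 windows (54.8%), of 15 genes, against 35.7%, and GTTAAT in 0 of the 31, against 7.1%. The windows of Abcf2 overlap each other, and that of Abcg5 overlaps 1 of the Abcg8 windows. A match describes letters and is not a binding site.

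ABC members lay on both sides of 0, with the larger ratios mostly toward liver. Of the 37 measured ABC probes, 27 passed the test (73%, against 50.2% of all probes). Toward liver 17 passed (45.9%, against 23.5% of all probes), and toward spleen 10 passed (27%, against 26.7%). At 2-fold or more, 10 ABC probes were higher in liver (27%, against 8.85% of all probes) and 3 were lower in liver (8.11%, against 9.13%). Together these are 13 ABC probes (35.1%), against 18% of all probes. At 8-fold or more 5 were higher in liver (13.5%, against 1.81% of all probes) and 0 were lower in liver, against 0.241%. The median ratio was 0.27 for the ABC probes and 0.02 for all probes, and the median size of the ratio, without its sign, was 0.70 and 0.31. Single values of the members ran from -2.54 to 4.27, inside the table's upper limit of 6.64.

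**Figure D1:**
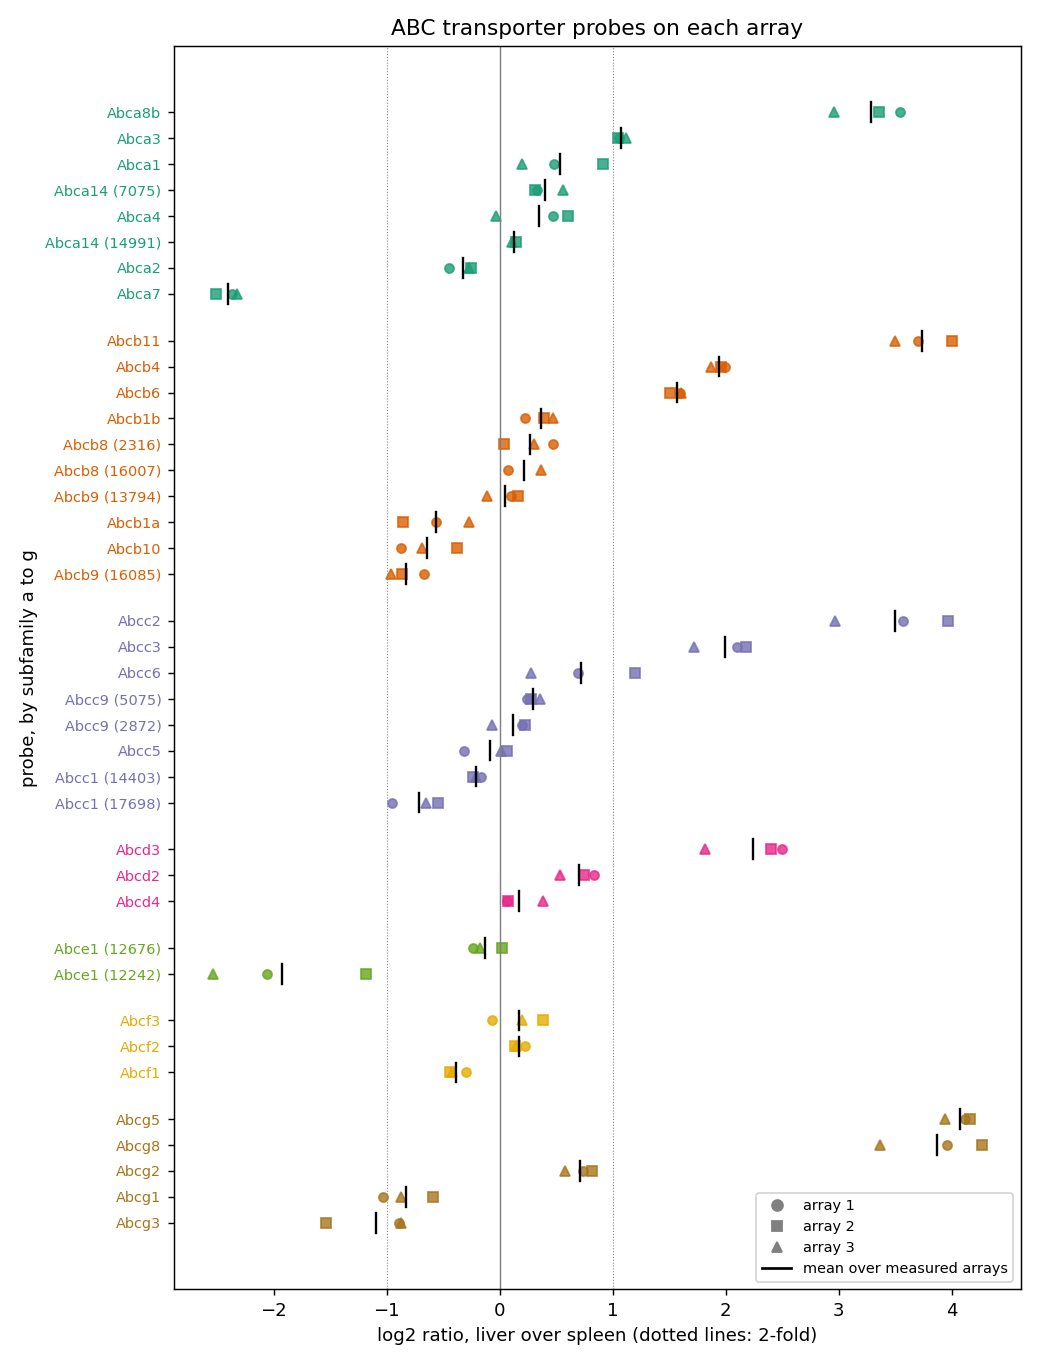
Each row is an ABC probe, grouped by subfamily a to g, and the horizontal axis is the log2 ratio of liver over spleen, with circles, squares and triangles for arrays 1, 2 and 3, a black line for the mean over measured arrays and dotted lines at 2-fold. Probes far to the right are Abcg5, Abcg8, Abcb11, Abcc2 and Abca8b, with means from 3.29 to 4.07, and the farthest left is Abca7 at -2.40.

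The 4 highest ratios of the family were those of canalicular exporters: Abcg5, Abcg8, Abcb11 and Abcc2. Of the 8 probes of canalicular exporters, 7 rose in liver, 5 of them at 2-fold or more, and 1 fell, with a median of 2.72. Hepatocyte markers moved with them: 8 of 9 marker probes measured on all arrays passed toward liver, with medians of 5.04, 4.89 and 4.60 over the probes measured on arrays 1, 2 and 3, and their part in the result was not tested. Of the bile duct markers, 1 of 4 probes passed, toward liver, with array medians of -0.36, 0.01 and 0.11. Among all probes, 23.5% passed toward liver, 8.85% at 2-fold or more, and 26.7% passed toward spleen.

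Abcg5 and Abcg8 code for partners that form a dimer exporting cholesterol and plant sterols into bile. Abcg5 read 4.12, 4.16 and 3.94 on arrays 1, 2 and 3, and Abcg8 read 3.96, 4.27 and 3.37. Every value of both was at least 3.37, and array 3 was the lowest for each. Abcg5 averaged 4.07 ± 0.12, a 16.8-fold ratio (limma adjusted p = 1.73e-05), and ranked 69 from the top of 14122 probes. Abcg8 averaged 3.87 ± 0.46, a 14.6-fold ratio (adjusted p = 5.1e-05), at rank 87. The difference of Abcg8 minus Abcg5 was -0.15, 0.11 and -0.57 on the 3 arrays, so it changed sign between arrays and its mean of -0.20 was within its SD of 0.34.

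Abcb11 is the bile salt export pump of the canalicular membrane. It read 3.70, 4.0 and 3.50 on the 3 arrays, an average of 3.74 ± 0.25 or 13.3-fold (adjusted p = 1.93e-05, rank 105). Abcc2 carries bilirubin glucuronides and other organic anion conjugates into bile. It read 3.57, 3.97 and 2.97, an average of 3.50 ± 0.50 or 11.3-fold (adjusted p = 8.98e-05, rank 147). The values of Abcb11 and Abcc2 overlapped, and both were highest on array 2 and lowest on array 3. Abcg2, which exports urate and many drugs, read 0.74, 0.82 and 0.58, an average of 0.71 ± 0.12 or 1.64-fold (adjusted p = 0.00162).

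Abcb1a, Abcb1b and Abcb4 are related neighbours on chromosome 5 and had different ratios. Abcb4, which moves phosphatidylcholine into bile, read 1.99, 1.96 and 1.87, an average of 1.94 ± 0.06 or 3.84-fold (adjusted p = 3.67e-05). Abcb1b, a drug-exporting P-glycoprotein, read 0.22, 0.39 and 0.47 with a mean of 0.36 ± 0.13 (adjusted p = 0.0206). Abcb1a, the other P-glycoprotein, read -0.56, -0.86 and -0.27 with a mean of -0.56 ± 0.29 (adjusted p = 0.0163). The values of the 3 genes did not overlap. Abcb4 exceeded Abcb1b by 1.58 ± 0.19 and Abcb1b exceeded Abcb1a by 0.92 ± 0.28, each with the same sign on every array. These sequences are similar, and signal shared between their probes was not resolved here. The calls of both P-glycoproteins were lost without single arrays: Abcb1a had an adjusted p = 0.0522 without array 1 and 0.0654 without array 2, with means of -0.56 and -0.41. Abcb1b had an adjusted p = 0.0887 without array 2 and 0.0802 without array 3, with means of 0.35 and 0.31.

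**Figure D2:**
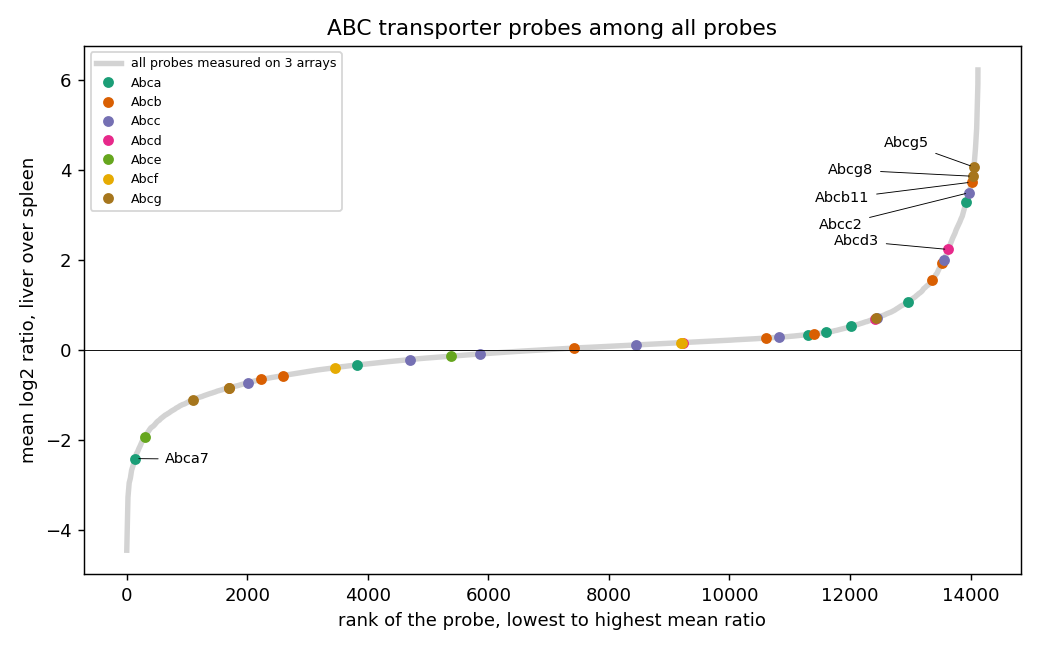
The grey curve gives the mean log2 ratio, liver over spleen, of all 14122 measured probes in order from lowest to highest, and coloured points place the 37 ABC probes on it by subfamily. Abcg5, Abcg8, Abcb11 and Abcc2 lie on the steep upper end at ranks 69 to 147 from the top, and Abca7 lies at rank 141 from the bottom.

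Among the exporters of the blood-facing membrane and other conjugate exporters, 2 of 5 probes rose in liver and 1 fell, a share of 60% near the 50.2% of all probes. Abcc3, which moves glucuronides into blood, read 2.10, 2.18 and 1.72, an average of 2.00 ± 0.24 or 3.99-fold (adjusted p = 0.000103). Abcc6, whose loss causes ectopic calcification, read 0.70, 1.20 and 0.28, all above 0 but spread over a range wider than its mean of 0.72 ± 0.46. Its adjusted p = 0.0217, and it was 0.0553 without array 1, with a mean of 0.74, and 0.0635 without array 2, with a mean of 0.49. Abcc1, an exporter of leukotrienes and glutathione conjugates, had 2 probes with negative means, -0.72 ± 0.21 on probe 17698 (adjusted p = 0.00317) and -0.21 ± 0.04 on probe 14403 (adjusted p = 0.0766). Abcc5, an exporter of cyclic nucleotides, averaged -0.08 ± 0.21 and read -0.32, 0.07 and 0.01.

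Exporters of cellular lipids passed on either side of 0, 2 of 5 probes toward liver and 3 toward spleen, against 23.5% and 26.7% of all probes, with a median of -0.32. The calls of Abca1 and Abca2 among them were lost without single arrays. Abca7, a lipid transporter linked to phagocytosis, had the lowest ratio of the family. It read -2.37, -2.51 and -2.33, an average of -2.40 ± 0.10, so that it was 5.29-fold higher in spleen (adjusted p = 2.41e-05) and 141 from the bottom of the 14122 probes. Abcg1, which passes cholesterol to high-density lipoprotein, read -1.03, -0.59 and -0.87, an average of -0.83 ± 0.23 (adjusted p = 0.00211). All values of both genes were below 0.

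Abca1, which loads cholesterol and phospholipid onto apolipoprotein A-I, read 0.48, 0.92 and 0.20. All 3 values were above 0, but the mean of 0.53 ± 0.36 passed only narrowly (adjusted p = 0.0319), with an adjusted p = 0.0739 without array 1, where the mean was 0.56, and 0.101 without array 2, where it was 0.34. Abca3, known for packing surfactant lipid in lung, read 1.05, 1.05 and 1.12, an average of 1.07 ± 0.04 or 2.11-fold (adjusted p = 0.000219). Abca2, a lysosomal member known from brain, averaged -0.32 ± 0.11 (adjusted p = 0.0271), and its adjusted p was 0.138, 0.0707 and 0.0609 without arrays 1, 2 and 3, with means of -0.26, -0.36 and -0.35.

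Leukocyte markers stood mostly on the spleen side. Among the lipid exporters, Abca7, Abcg1 and Abca2 also averaged below 0, while Abca1 and Abca3 averaged above 0. Of the macrophage and Kupffer cell marker probes, 5 of 8 passed toward spleen and 1, of Clec4f, toward liver, with array medians of -1.22, -1.32 and -0.93. Of the B cell marker probes 6 of 8 passed toward spleen, with array medians of -1.93, -2.96 and -1.72. Of the T and NK cell marker probes, 1 of 6 passed toward liver and 4 toward spleen, with array medians of -2.26, -1.92 and -1.73. Of the neutrophil marker probes, 1 of 13 passed toward liver and 8 toward spleen, with array medians of -0.83, -1.45 and -0.84. Among all probes, 23.5% passed toward liver and 26.7% toward spleen. The part of these cell types in the ratios of Abca7, Abcg1 and the other members below 0 was not tested.

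The remaining a members and the potassium channel regulator gave smaller or single results. Abca8b, of the gene group around Abca5 to Abca9, read 3.54, 3.36 and 2.96, an average of 3.29 ± 0.30 or 9.76-fold (adjusted p = 3.19e-05). Its lowest value lay above the highest of every other a member. Abca14 averaged 0.40 ± 0.14 on probe 7075 (adjusted p = 0.0163, and 0.0626 without array 3, with a mean of 0.32), while probe 14991 read 0.15 and 0.11 on arrays 2 and 3 and was listed at 0 on array 1. Abca4, the retinoid lipid transporter of photoreceptors, read 0.47, 0.60 and -0.03, a mean of 0.35, and did not pass (adjusted p = 0.0902). Without array 3 it passed, with a mean of 0.54 (adjusted p = 0.0144), and without array 2 its mean was 0.22 (adjusted p = 0.332). Abcc9, the sulfonylurea receptor of potassium channels in muscle and vessels, averaged 0.29 ± 0.06 on probe 5075 (adjusted p = 0.0291) and 0.12 ± 0.16 on probe 2872 (adjusted p = 0.338). The Abcc9 call was lost without any 1 of the arrays, with means of 0.26 to 0.32 and adjusted p-values of 0.0886 to 0.102.

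In peroxisomes, Abcd3 and Abcd2 were higher in liver. Abcd3, which imports branched-chain and dicarboxylic acids and bile acid precursors, read 2.50, 2.40 and 1.82, an average of 2.24 ± 0.37 or 4.72-fold (adjusted p = 0.000168). Abcd2, an importer of very long chain fatty acids, read 0.83, 0.74 and 0.53, an average of 0.70 ± 0.15 or 1.63-fold (adjusted p = 0.00214). The ranges of the pair did not overlap, and both were lowest on array 3. Abcd4, which serves lysosomal cobalamin release, read 0.06, 0.07 and 0.38 and did not pass (adjusted p = 0.201). Abcb9, a lysosomal peptide transporter, gave a different result on each probe: -0.67, -0.86 and -0.96 on probe 16085 (adjusted p = 0.00109), and 0.10, 0.16 and -0.11 on probe 13794 (adjusted p = 0.669).

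The mitochondrial members differed in sign. Abcb6, a porphyrin transporter, read 1.59, 1.51 and 1.60, an average of 1.57 ± 0.05 or 2.96-fold (adjusted p = 6.61e-05). Abcb10, an inner membrane protein needed for heme synthesis in red cell precursors, read -0.87, -0.38 and -0.69, an average of -0.65 ± 0.25, or 1.56-fold higher in spleen (adjusted p = 0.00692). The values of Abcb6 and Abcb10 lay on opposite sides of 0 on every array. Erythroid markers moved beside Abcb10, with 1 of 8 probes (Rhag) past the test toward liver and 7 toward spleen. The shares of all probes were 23.5% and 26.7%. Array medians of the erythroid markers were -1.96, -1.91 and -1.57, and their part in the Abcb10 ratio was not tested. Abcb8, another inner membrane member, averaged 0.27 ± 0.22 on probe 2316 (adjusted p = 0.0887) and read 0.07 and 0.37 on arrays 1 and 3 on probe 16007, which was listed at 0 on array 2.

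The soluble members of subfamilies e and f act in translation. Abce1, which splits ribosomes after termination, had probes that disagreed by more than 2-fold. Probe 12242 read -2.06, -1.18 and -2.54, an average of -1.93 ± 0.69 or 3.81-fold higher in spleen (adjusted p = 0.00202). Probe 12676 read -0.24, 0.02 and -0.17, an average of -0.13 ± 0.14 (adjusted p = 0.287). The probes did not overlap, and probe 12676 exceeded probe 12242 by 1.83, 1.21 and 2.37 on the 3 arrays. Abcf1, a factor of translation initiation, averaged -0.38 ± 0.08 (adjusted p = 0.0125, and 0.0648 without array 2, with a mean of -0.36). Abcf2 and Abcf3, relatives of Abcf1, both averaged 0.17, with SDs of 0.05 and 0.23, and did not pass.

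Of 2052 genes on the arrays with 2 measured probes, 13.9% had means at least 1 apart on the log2 scale, and the median distance was 0.32. Among the 4 ABC genes with both probes measured on all arrays the distances were 1.80 ± 0.58 for Abce1, 0.88 ± 0.13 for Abcb9, 0.51 ± 0.24 for Abcc1 and 0.17 ± 0.21 for Abcc9. A call for Abce1, Abcb9, Abcc1 or Abcc9 therefore belongs to a probe and not to all probes of the gene.

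**Figure D3:**
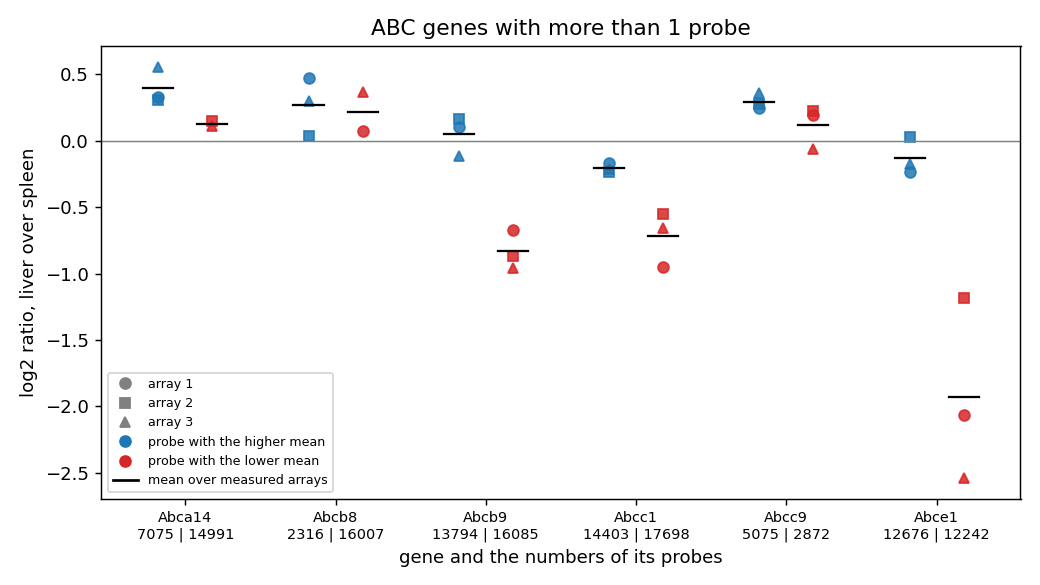
For each of the 6 ABC genes with more than 1 probe, the vertical axis gives the log2 ratio, liver over spleen, on each array, with blue for the probe of the higher mean, red for the other and a black line for each mean. The probes of Abce1 lie 1.80 apart on average and those of Abcb9 0.88, while the points of the Abcb8 probes overlap.

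Abcg3, a relative of Abcg2 found in rodents, was the remaining member at 2-fold or more toward spleen. It read -0.89, -1.54 and -0.87, an average of -1.10 ± 0.38 or 2.14-fold higher in spleen (adjusted p = 0.00258), with array 2 apart from the other arrays and a mean of -0.88 without it. All 5 measured probes of subfamily g passed the test, 3 toward liver and 2 toward spleen, with a median of 0.71 and a range from -1.10 to 4.07. By subfamily, the probes past the test toward liver and toward spleen were 4 and 2 of 7 for a, 4 and 3 of 9 for b and 4 and 1 of 8 for c. In d, 2 of 3 passed, toward liver. In e, 1 of 2 passed, and in f, 1 of 3, toward spleen in each case. In share of probes past the test, e stood at 50% and f at 33.3%, not above the 50.2% of all probes, against 85.7% for a, 77.8% for b, 62.5% for c and 66.7% for d. Without any 1 of the arrays, 1 probe of a passed toward spleen, and without array 1 or array 2, 2 probes of c passed toward liver.

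Of the 37 measured probes, 31 had the same sign on all 3 arrays, and the 6 with mixed signs (Abca4, Abcb9 on probe 13794, Abcc5, Abcc9 on probe 2872, Abce1 on probe 12676 and Abcf3) were among the 10 that did not pass. The means of those 10 lay between -0.21 and 0.35. A member's SD over arrays ranged from 0.04 to 0.69, with a median of 0.18 against 0.16 for all probes. Array 3 gave the lowest value for 8 of the 10 probes at 2-fold or more toward liver, and it is the array with the narrower spread over all probes.

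Members of the ABC superfamily whose symbols do not begin with Abc had small ratios. Tap1 and Tap2, which together carry peptides to class I molecules, averaged -0.41 ± 0.16 (Tap1 probe 5402, adjusted p = 0.0173), -0.24 ± 0.10 (Tap1 probe 3335, adjusted p = 0.0662) and -0.09 ± 0.10 (Tap2, adjusted p = 0.417). Cftr, the chloride channel, read -0.20, 0.30 and 0.45 and did not pass (adjusted p = 0.323).

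Other genes of the same processes were set beside the members by their counts. Of 15 probes of bile acid and drug receptors and carriers, 12 passed toward liver and 2 toward spleen, with a median of 2.38. The largest was the hepatocyte uptake carrier Slco1b2 at 6.23 ± 0.44, with array 2 at the table's limit. The 2 probes toward spleen were of the carriers Slco1a1 (-0.43 ± 0.31) and Slc10a1 (-0.36 ± 0.13). The other probe of Slco1a1 averaged 2.38 ± 0.39. That of Slc10a1 read 4.77 and 4.19 on arrays 1 and 3 and was listed at 0 on array 2. For cholesterol efflux and lipoprotein genes, 8 of 11 probes passed toward liver and 2 toward spleen, with a median of 0.81. The apolipoprotein Apoe was at 3.03 ± 0.56 and the lysosomal sterol protein Npc2 at -0.43 ± 0.14, and Apoa1 was listed at 0 on every array. For peroxisomal fatty acid handling, 10 of 13 probes passed, toward liver, with a median of 0.57, and the oxidation enzyme Ehhadh stood at 4.94 ± 0.15.

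Of 13 probes of heme and iron-sulfur synthesis genes, their mitochondrial carriers and 2 erythroid transcription factors, 4 passed toward liver and 6 toward spleen, with a median of -0.52. Both factors, Gata1 (-0.57 ± 0.39) and Klf1, were among the 6, as was Alas2 (-1.40 ± 0.37). Gata1, Klf1 and Alas2 were also counted among the erythroid markers, so the lists share probes. The values ran from the mitochondrial carrier Slc25a39 at 1.48 ± 0.01 to Klf1 at -3.04 ± 0.24. Of 6 probes of ribosome recycling and GCN pathway genes, 1 passed toward liver, the ribosome rescue factor Hbs1l at 0.72 ± 0.05, and 2 toward spleen, with the initiation factor Eif3a at -0.56 ± 0.16. Of 13 probes for class I peptide loading, 5 passed toward liver and 2 toward spleen, with the chaperone Calr at 0.70 ± 0.19 on its highest probe and the immunoproteasome subunit Psmb8 at -0.50 ± 0.26. These counts are to be read against 23.5% toward liver and 26.7% toward spleen among all probes.

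**Figure D4:**
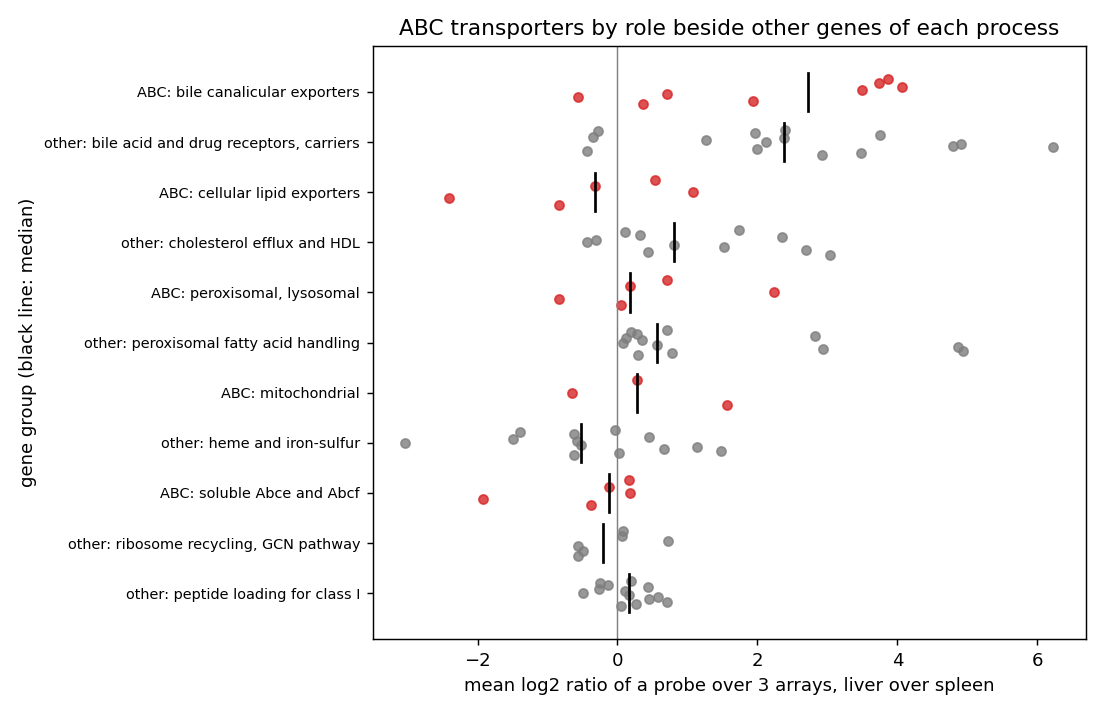
Each point is the mean log2 ratio, liver over spleen, of a probe measured on all 3 arrays, with ABC probes by role in red, other genes of the same process in grey and a black line at each group's median. The canalicular exporters have a median of 2.72 beside 2.38 for bile acid and drug receptors and carriers, and the lipid exporters have a median of -0.32 beside 0.81 for cholesterol efflux and lipoprotein genes.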

How the data were processed

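The deposited table gives 1 log2 ratio of the channels per probe and array, for 16281 probes on 3 arrays. The log base was read from the deposited values, whose maximum on each array is the log2 of 100. The median of every deposited log2 column is 0 when exact zeros are counted. How the authors corrected background, normalized dyes or filtered is not given in the sources used here. No channel intensity was used. The zeros, 1414, 1098 and 1137 on arrays 1, 2 and 3, were taken as no measurement, which left 14122 probes with a value on every array. Symbols came from the platform annotation. All 39 ABC probes were found by Entrez number in the RefSeq table and no symbol changed.

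Each probe's ratio was set against 0 by limma (version 3.58.1, under R version 4.3.3) with a model holding only an intercept, followed by eBayes. The p-values are two-sided and were adjusted by Benjamini-Hochberg over the 14122 probes. Probes and not gene averages were fitted because probes of a gene can disagree. A limit of 2-fold was added because small differences pass between repeat arrays. Every ABC gene could be named, and values per array were given for probes past the test at 2-fold or more and for genes whose probes differ by 1 or more; other members that are named with values were chosen after their values were seen. From each list of other genes the largest member past the test in each direction was named, and some further members were named with their values. Members, lists and tests were chosen with earlier results of these data known.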

Additional observations from a re-analysis of the deposited data

How the results depend on the processing

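All 13 ABC probes past the test at 2-fold or more kept their sign and passed under each of the 10 alternatives run, and 23 of the 37 tested probes kept their call and sign under all of them. Over the alternatives the ABC counts were 13 to 17 toward liver and 7 to 10 toward spleen, and at 2-fold or more 10 toward liver and 2 to 3 toward spleen. Centring or scaling the arrays, robust variance moderation and use of only named probes changed no call of an ABC probe. Of the others, 8 probes lost their call, 4 gained one without a change of sign and 2 changed sign under at least 1 alternative. The 4 were Abca4 without array 3 (0.54), Abcf2 with exact zeros kept (0.17), Abcc1 on probe 14403 and Abce1 on probe 12676. Abcc1 on probe 14403 passed with zeros kept. With probes averaged, Abcc1 and Abce1 passed at -0.46 and -1.03. Those are gene averages that include probe 17698 of Abcc1 (-0.72) and probe 12242 of Abce1 (-1.93), which passed on their own. Probe 12676 of Abce1 passed under no other alternative.

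Changes of sign were those of Abcb9 on probe 13794 and of Abcc5. With probes averaged, Abcb9 stood at -0.39 and passed (adjusted p = 0.0131), a value of the gene that includes probe 16085 at -0.83. Probe 13794 itself ran from -0.0045 to 0.132 without 1 of the arrays, the lowest without array 2. Abcc5 ran from -0.155 to 0.0379 without 1 of the arrays, the highest without array 1. Its values on arrays 1, 2 and 3 were -0.32, 0.07 and 0.01. Why the arrays differed for these probes was not tested. With exact zeros kept as ratios of 1, Abcc6, Abca1 and Abcb1a did not pass (adjusted p = 0.101, 0.114 and 0.0712), the count of subfamily c toward spleen was 2 and that of f toward liver was 1. Under that setting the counts toward spleen were 1 for bile acid and drug genes, 1 for ribosome recycling and 1 for class I loading. With probes averaged, which tests fewer features, the counts toward spleen were 1 for bile acid and drug genes, 1 for cholesterol efflux and 1 for class I loading, whose count toward liver was 3. Class I loading also had 1 toward spleen with probes on at least 2 arrays or with arrays scaled.

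Without 1 of the arrays, which leaves fewer degrees of freedom, the ABC counts were 13 to 15 toward liver and 7 to 9 toward spleen. Subfamily counts were 1 for a toward spleen whichever array was left out, 2 to 3 for c toward liver and 0 to 1 for f toward spleen, the lowest being without array 1 or 2 for c and without array 2 for f. The counts toward spleen were 0 to 1 for bile acid and drug genes (0 without array 1 or 3), 1 for cholesterol efflux whichever array was left out, 1 to 2 for ribosome recycling (1 without array 1 or 3) and 0 to 1 for class I loading (0 without array 1 or 2). Class I loading toward liver counted 2 to 4, the lowest without array 2.

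The series holds 1 group of ratios, and each ratio pairs both tissues on the same array. The test of the ratios against 0 was therefore already paired by array. Precision rests on 3 arrays in 1 dye orientation. Signal over background is unknown, because no intensities were used, so equal signals and dim probes cannot be told apart at ratios near 0.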
